A study of Mus musculus with 12 samples.

Results

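Imprinted genes are expressed from the copy inherited from only 1 parent, and 10 of them that lie outside the Kcnq1ot1 domain were followed here in mouse embryonic stem cells (ESCs) and embryoid bodies (EBs). They were chosen by name, with no measured value in the rule but with earlier results of these data known. Comparisons of the members with all genes are therefore descriptions. The genes were found by matching gene identifiers to symbols among the 52636 genes of each deposited count table. All 10 were matched. Mest, Peg3, Peg10, Sgce, Dlk1, Nnat and Plagl1 are expressed from the paternal copy (7 genes). H19, Meg3 and Grb10 are expressed from the maternal copy in most tissues (3 genes). The counts carry no information on the parental copy, so they measure the total RNA of each gene and not its imprint.

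The study asked what circKat6b-e2, a circular RNA made from the Kat6b gene, does for self-renewal and differentiation of E14 cells, a mouse ESC line, and compared knockdown (KD) with wild-type (WT) cells. The 4 groups were KD EBs at day 6, WT EBs at day 6, undifferentiated KD ESCs and undifferentiated WT ESCs, with 3 libraries each, stated by the series to be biological replicates. Sample titles mark KD cells with an sh prefix, the usual mark of a short hairpin RNA. The labels do not say whether a control hairpin was used in WT cells or whether the KD population came from a single clone. ESCs of both kinds were kept on gelatin in serum with LIF and inhibitors of MEK and GSK3. RNA was selected on poly-T beads, a step that captures polyadenylated RNA and leaves circular RNA behind, so the targeted molecule was not measured.

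Libraries held between 25377626 and 37770596 counts. Kat6b, whose linear transcripts do not check the knockdown of the circle, ranged from 69.0 to 71.9 CPM (counts scaled to a common library size) in KD EBs and from 34.6 to 36.8 CPM in WT EBs, and from 84.6 to 91.0 CPM in KD ESCs and from 56.3 to 75.8 CPM in WT ESCs. The log2 fold change of KD over WT was 0.98 in EBs (SE 0.06, adjusted p = 2.57e-15 by edgeR) and 0.41 in ESCs (SE 0.10, adjusted p = 0.0893 by edgeR). Pluripotency markers separated the stages, with the 6 genes of the list summing to between 185 and 419 CPM in EBs and between 6992 and 8836 CPM in ESCs. ESC WT replicate 2 stood apart from the other ESC libraries on the first principal component (−73 against −6.1 to 30.2), and each member's ESC result is therefore also given without it.

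Imprinting is set in the germline by DNA methylation of control regions, which the embryo then maintains through its waves of demethylation. ZFP57, a zinc finger protein that binds the methylated motif TGCCGC, and its partner TRIM28 protect these marks in ESCs. Paternally expressed imprinted genes often promote fetal growth and maternally expressed ones often restrain it, and many of both kinds are switched on as embryonic tissues form and fall again after birth.

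Several of the genes carry regulatory sequence that a reader may want at hand. H19, Mest and Meg3 host microRNAs, which were not measured by this protocol, and 7 mature forms lie inside the 3 host genes on the same strand, each with a seed of its own. Those of H19 and Mest, the most abundant hosts in EBs, are shown 5′ to 3′ from RefSeq on GRCm38.p6, with the seed (bases 2 to 8) in capitals.
mmu-miR-675-5p, in H19: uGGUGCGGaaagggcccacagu
mmu-miR-675-3p, in H19: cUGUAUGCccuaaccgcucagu
mmu-miR-335-5p, in Mest: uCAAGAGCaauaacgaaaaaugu
mmu-miR-335-3p, in Mest: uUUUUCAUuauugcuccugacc

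RefSeq promoter windows of 300 bases (250 before to 50 after a start listed by RefSeq, GRCm38.p6) were matched for 7 of the 10 genes. Some of these starts, among them those of Mest and Plagl1, lie inside the spans given below for the counted gene models. The letters TGCCGC were searched on both strands, where the reverse strand reads GCGGCA. Of 32851 windows of this length over all genes, 11.6% held the motif and 1.53% held it at least 2 times. It was found in 6 of the 11 windows of these 7 genes, which belong to Mest, Nnat, Plagl1, Grb10 and Meg3, and 2 of the 6 are Mest windows that overlap. The window of Peg3 and that of Dlk1 did not hold it. Mest and Nnat, the members with the largest rises in KD EBs, and Grb10 and Plagl1, the members that fell there, are shown with the motif in capitals. The Mest window shown held it 2 times and the other windows shown held it 1 time. A match of letters is not evidence of binding.
Mest, chr6:30737800-30738099, plus strand: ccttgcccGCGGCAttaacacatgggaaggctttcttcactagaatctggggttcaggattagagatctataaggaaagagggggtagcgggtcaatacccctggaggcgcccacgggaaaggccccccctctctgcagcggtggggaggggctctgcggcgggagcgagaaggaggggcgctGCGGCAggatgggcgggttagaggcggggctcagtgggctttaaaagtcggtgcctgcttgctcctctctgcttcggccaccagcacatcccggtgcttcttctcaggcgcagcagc
Nnat, chr2:157559828-157560127, plus strand: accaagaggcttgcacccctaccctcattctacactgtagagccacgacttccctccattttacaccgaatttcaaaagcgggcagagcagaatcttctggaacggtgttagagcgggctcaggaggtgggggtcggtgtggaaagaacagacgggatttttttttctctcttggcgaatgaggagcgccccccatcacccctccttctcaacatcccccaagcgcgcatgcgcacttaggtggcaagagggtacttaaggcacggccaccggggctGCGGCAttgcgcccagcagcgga
Grb10, chr11:12037371-12037670, minus strand: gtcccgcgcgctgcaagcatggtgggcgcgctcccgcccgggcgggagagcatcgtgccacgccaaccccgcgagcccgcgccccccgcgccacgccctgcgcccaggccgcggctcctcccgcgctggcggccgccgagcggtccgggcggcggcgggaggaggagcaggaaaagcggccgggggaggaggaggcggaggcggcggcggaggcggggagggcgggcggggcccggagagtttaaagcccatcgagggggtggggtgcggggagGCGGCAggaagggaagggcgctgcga
Plagl1, chr10:13090582-13090881, plus strand: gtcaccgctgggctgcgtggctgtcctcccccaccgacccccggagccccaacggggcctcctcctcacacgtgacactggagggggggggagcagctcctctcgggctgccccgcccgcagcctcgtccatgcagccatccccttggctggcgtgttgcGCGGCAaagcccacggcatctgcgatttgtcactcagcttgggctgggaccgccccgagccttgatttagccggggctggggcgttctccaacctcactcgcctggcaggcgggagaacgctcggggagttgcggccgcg
These windows differ in CpG content, the dinucleotide that DNA methylation acts on. The Grb10 window shown held 45 CpG, a number reached by 1.93% of all windows, and that of Plagl1 held 26 (16.9% of windows). Those shown for Mest and Nnat held 17 each (31.4% of windows), against a median of 7. A second Grb10 window, not shown, held 9 CpG (45.8% of windows). A Mest window that starts at chr6:30733256, also not shown, held 8 (48.6% of windows). Neither of these held the motif. TGCCGC itself contains a CpG, and the share of 11.6% over all windows was not matched for CpG content.

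In day 6 EBs, 7 of the 9 tested members were higher in KD than in WT cells and 2 were lower, so that all 9 passed the test. Over all genes, 55.7% of 17355 tested genes passed, 28.0% higher and 27.7% lower, so the number of members called is to be read against a background in which most genes changed. The rises were those of Mest, Nnat, Peg10, Peg3, Meg3, Sgce and H19, and the falls those of Plagl1 and Grb10. The median log2 fold change of the 9 was 0.68, against 0.00 over all tested genes. Tests were edgeR's quasi-likelihood F-test with Benjamini-Hochberg adjustment over all tested genes, called at an adjusted p under 0.05, and log2 fold changes are KD over WT with their standard error (SE). KD and WT libraries did not overlap for any of the 9 tested members, as for 61.2% of all tested genes. These libraries are bulk RNA, in which a change in the number of expressing cells and a change in RNA per cell cannot be told apart.

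**Figure D1:**
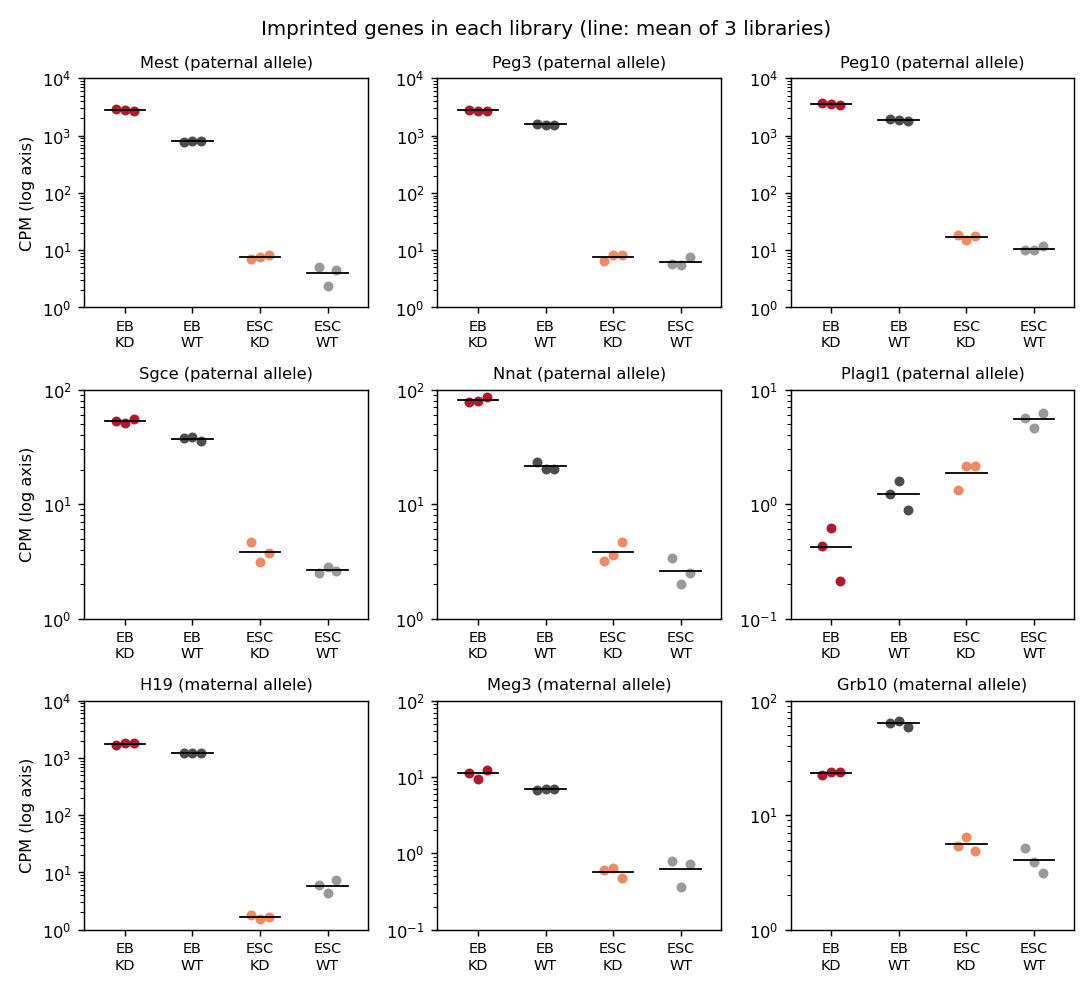
CPM of 9 imprinted genes in each library on log axes, with a line at the mean of the 3 libraries of a group. Mest, Peg3, Peg10 and H19 stand between 789 and 3791 CPM in EBs and between 1.54 and 18.2 CPM in ESCs, while Plagl1 is highest in WT ESCs (4.62 to 6.29 CPM). Dlk1 is not drawn because 10 of its 12 values are 0.

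Mest (chr6:30723547-30748465, plus strand, GRCm38) encodes a protein of the alpha/beta hydrolase fold and is a classical marker of embryonic mesoderm. It stood at 2924, 2776 and 2710 CPM in KD EBs, against 789, 818 and 804 CPM in WT EBs. The KD libraries all lay far above the WT libraries, and the log2 fold change was 1.80 (SE 0.03, adjusted p = 5.32e-30 by edgeR). In ESCs Mest was at 6.97, 7.67 and 8.11 CPM with the KD and 5.04, 2.40 and 4.55 CPM in WT cells. The KD libraries were again the higher ones, with a gap smaller than in EBs, and the log2 fold change of 0.92 (SE 0.26) missed the threshold (adjusted p = 0.104 by edgeR). Without ESC WT replicate 2, the lowest of these libraries, the value was 0.66 (SE 0.21) and was called (adjusted p = 0.0424 by edgeR). It was also called without the filter on low counts (0.92, adjusted p = 0.00412 by edgeR), with DESeq2 (0.91, adjusted p = 0.0228) and in the fit of all 12 libraries (0.89, adjusted p = 0.0109 by edgeR). Of the exonic bases of Mest, 23.1% overlap those of Copg2 on the opposite strand, and counts without strand do not separate the 2 genes there. Copg2, a coatomer subunit gene, was lower with the KD, with 72.3 ± 1.18 CPM in KD EBs against 99.4 ± 2.98 CPM in WT EBs (means ± SD of 3 libraries, as for all values given with ±, and −0.46 on the log2 scale, SE 0.05, adjusted p = 3.74e-10 by edgeR), so it moved against Mest.

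Peg10 and Sgce share a control region and start 99 bases apart on opposite strands of chromosome 6. Peg10 (chr6:4747306-4760517, plus strand) is a gene derived from a retrotransposon and needed for the placenta, and Sgce (chr6:4674350-4747207, minus strand) encodes epsilon-sarcoglycan, a membrane protein. Peg10 had 3791, 3605 and 3497 CPM in KD EBs, against 1921, 1908 and 1835 CPM in WT EBs, and Sgce had 52.8, 51.1 and 55.3 CPM in KD EBs, against 37.7, 38.8 and 35.6 CPM in WT EBs. Both neighbours were higher in each KD library than in any WT library. The log2 fold change was 0.94 for Peg10 (SE 0.03, adjusted p = 1.10e-21 by edgeR) and 0.51 for Sgce (SE 0.06, adjusted p = 4.78e-08 by edgeR). Per kilobase of exon, Peg10 stood at 100.8 to 114 times the level of Sgce in KD EBs, against 78.4 to 82.1 times in WT EBs, and at 6.25 to 7.82 times in KD ESCs, against 5.57 to 7.27 times in WT ESCs. The gap between these divergent neighbours was thus wider in EBs than in ESCs, and the difference in their fold changes was not tested. In ESCs Peg10 was at 18.2, 15.3 and 17.7 CPM with the KD and 10.1, 9.94 and 11.9 CPM in WT cells (0.69 on the log2 scale, SE 0.14, adjusted p = 0.0591 by edgeR), and Sgce at 4.65, 3.12 and 3.76 CPM with the KD and 2.48, 2.84 and 2.60 CPM in WT cells (0.54, SE 0.25, adjusted p = 0.248 by edgeR). KD and WT libraries did not overlap for either gene, as for 30.8% of all genes tested in ESCs, and neither passed. Peg10 was called without ESC WT replicate 2 (0.64, SE 0.15, adjusted p = 0.00249 by edgeR) and without replicate 3 (0.77, SE 0.16, adjusted p = 0.0454 by edgeR), and Sgce was called in no fit with 1 library left out (without ESC WT replicate 2, 0.59, SE 0.30, adjusted p = 0.246 by edgeR). Peg10 was called as well without the filter on low counts, with DESeq2, with a replicate block and in the fit of all 12 libraries (0.68 to 0.69, adjusted p = 0.00125, 0.00174, 0.0493 and 5.62e-04 by edgeR or DESeq2). Sgce was called in the fit of all 12 libraries alone among these (0.53, adjusted p = 0.0318 by edgeR).

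Peg3 (chr7:6703892-6730431, minus strand) encodes a zinc finger protein of proximal chromosome 7, known for its part in growth and maternal behaviour. Its values were 2803, 2748 and 2711 CPM in KD EBs and 1602, 1558 and 1557 CPM in WT EBs, 2 tight and separate groups (0.81 on the log2 scale, SE 0.02, adjusted p = 1.44e-22 by edgeR). In ESCs it had 6.40, 8.25 and 8.24 CPM with the KD and 5.70, 5.50 and 7.48 CPM in WT cells. These ranges overlapped, and the log2 fold change of 0.30 (SE 0.20) did not pass (edgeR adjusted p = 0.413, and 0.621 without ESC WT replicate 2).

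Nnat (chr2:157560078-157562522, plus strand) encodes neuronatin, a small membrane proteolipid of neurons and endocrine cells, and lies within the span of Blcap on chromosome 2. It had the largest log2 fold change of the members in EBs, 1.93 (SE 0.07, adjusted p = 3.57e-21 by edgeR). The libraries gave 78.6, 79.3 and 86.1 CPM in KD EBs and 23.3, 20.5 and 20.2 CPM in WT EBs. In ESCs the values of 3.20, 3.56 and 4.64 CPM with the KD and 3.35, 2.00 and 2.50 CPM in WT cells overlapped (0.53 on the log2 scale, SE 0.28, adjusted p = 0.292 by edgeR, and 0.520 without ESC WT replicate 2). Summed markers of neural cells were higher in KD EBs, at 98.4 to 103 CPM against 81.0 to 84.7 CPM in WT EBs. Most of each sum was Nes (75.8 ± 1.40 CPM with the KD and 64.1 ± 2.13 CPM in WT EBs). Of the 7 genes 2 were higher and 2 lower, and the part of neural cells in the change of Nnat was not tested. Per kilobase, Nnat stood at 2.58 to 2.89 times the level of Blcap in KD EBs and at 0.877 to 0.893 times in WT EBs.

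Plagl1 (chr10:13060504-13131694, plus strand), also known as Zac1, encodes a zinc finger transcription factor that arrests the cell cycle and regulates other imprinted genes, among them H19, Igf2 and Dlk1. It was the only paternally expressed member that fell, and it did so in both stages. In EBs it had 0.435, 0.624 and 0.213 CPM with the KD and 1.21, 1.58 and 0.892 CPM in WT libraries (−1.53 on the log2 scale, SE 0.48, adjusted p = 0.00743 by edgeR). These rest on 40 counts in all in KD EBs and 119 in WT EBs, and the call was lost without EB WT replicate 2, the highest library (−1.31, SE 0.56, adjusted p = 0.0544 by edgeR). In ESCs it had 1.33, 2.16 and 2.15 CPM with the KD and 5.65, 4.62 and 6.29 CPM in WT cells, and the highest KD library lay well below the lowest WT library (−1.55, SE 0.27, adjusted p = 0.0364 by edgeR). The ESC call held without ESC WT replicate 2 (−1.66, SE 0.29, adjusted p = 7.05e-05 by edgeR) and without replicate 3. It was lost without ESC WT replicate 1 (−1.53, adjusted p = 0.0775 by edgeR) or ESC KD replicate 1, 2 or 3 (−1.36, −1.66 and −1.66, edgeR adjusted p = 0.217, 0.194 and 0.202), and with scaling by library size only (−1.45, adjusted p = 0.0922 by edgeR).

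Dlk1 (chr12:109452823-109463336, plus strand) encodes a membrane protein of the Notch ligand family that restrains adipocyte formation. It had 0 counts in each of the 6 ESC libraries, 0, 0 and 7 counts in KD EBs and 0, 0 and 1 count in WT EBs. It did not pass the filter on low counts in any comparison and no fold change is given. In a group of 3 EB libraries, 3 counts correspond to 0.0314 CPM with the KD and 0.0307 CPM in WT cells. All counts in KD EBs came from replicate 3. Rtl1, the next paternally expressed gene of the domain, had 0 counts in EBs of both kinds.

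Meg3 (chr12:109541001-109571726, plus strand) is a maternally expressed long noncoding RNA of the Dlk1 domain, with its start 88178 bases from that of Dlk1. It had 11.3, 9.56 and 12.5 CPM in KD EBs and 6.79, 7.07 and 7.05 CPM in WT EBs, so that the KD libraries were all higher (0.68 on the log2 scale, SE 0.14, adjusted p = 1.08e-04 by edgeR). In ESCs it rested on 50 counts in all in KD and 61 in WT cells, at 0.609, 0.651 and 0.473 CPM with the KD and 0.792, 0.364 and 0.718 CPM in WT cells (−0.12, SE 0.57, edgeR adjusted p = 0.927, and 0.827 without ESC WT replicate 2). Mirg, a noncoding RNA further along the same cluster, stood at 94.6 ± 2.59 CPM with the KD and 56.1 ± 1.79 CPM in WT EBs (0.75, SE 0.05, adjusted p = 2.02e-14 by edgeR). Rian, between them, had 500, 366 and 438 counts in KD EBs and 274, 1 and 252 counts in WT EBs and was not called (1.36, SE 1.06, adjusted p = 0.355 by edgeR). WT replicate 2 stood apart with its single count. Meg3 shares 8.3% of its exonic bases with other annotated genes.

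H19 (chr7:142575529-142578143, minus strand), a maternally expressed long noncoding RNA of distal chromosome 7, was the only member called in both stages with opposite signs. It had 1667, 1799 and 1803 CPM in KD EBs and 1241, 1237 and 1226 CPM in WT EBs (0.51 on the log2 scale, SE 0.03, adjusted p = 5.36e-16 by edgeR). In ESCs it had 1.83, 1.54 and 1.64 CPM with the KD and 5.99, 4.30 and 7.31 CPM in WT cells (−1.81, SE 0.27, adjusted p = 0.0196 by edgeR). The KD libraries were thus all higher than the WT libraries in EBs and all lower in ESCs. Without ESC WT replicate 2 the ESC fall was −1.99 (SE 0.28, adjusted p = 2.02e-06 by edgeR), and it also passed without replicate 3. It was not called without ESC WT replicate 1 (−1.80, adjusted p = 0.0647 by edgeR) or ESC KD replicate 1, 2 or 3 (−1.88, −1.76 and −1.80, edgeR adjusted p = 0.147, 0.164 and 0.166), nor with scaling by library size only (−1.72, adjusted p = 0.0545 by edgeR). Igf2, the paternally expressed growth factor gene that shares enhancers with H19, had the same signs. It stood at 6093 ± 139 CPM with the KD and 4102 ± 62.8 CPM in WT EBs (0.57, SE 0.02, adjusted p = 1.08e-19 by edgeR), and at 0.321 ± 0.196 CPM with the KD and 0.958 ± 0.437 CPM in WT ESCs, where it did not pass (−1.54, SE 0.66, adjusted p = 0.209 by edgeR). Per kilobase, Igf2 stood at 1.40 to 1.48 times H19 in KD EBs and at 1.36 to 1.40 times in WT EBs.

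Grb10 (chr11:11930508-12038683, minus strand) encodes an adaptor that binds the insulin and IGF1 receptors and inhibits their signalling. It is expressed from the maternal copy in most tissues and from the paternal copy in neurons. In EBs it was the member that fell most firmly, with 22.3, 24.0 and 24.0 CPM with the KD and 64.4, 66.9 and 58.4 CPM in WT libraries (−1.43 on the log2 scale, SE 0.07, adjusted p = 2.05e-17 by edgeR). In ESCs it was at 5.41, 6.47 and 4.89 CPM with the KD and 5.20, 3.93 and 3.11 CPM in WT cells, with overlapping libraries (0.45, SE 0.24, edgeR adjusted p = 0.306, and 0.354 without ESC WT replicate 2). Its neighbours Ddc, the gene of DOPA decarboxylase, and Cobl, an actin nucleator gene, moved the other way in EBs. Ddc stood at 23.7 ± 1.81 CPM with the KD and 7.42 ± 1.72 CPM in WT EBs (1.67, SE 0.13, adjusted p = 2.28e-11 by edgeR), and Cobl at 6.73 ± 0.459 CPM with the KD and 2.43 ± 0.606 CPM in WT EBs (1.46, SE 0.20, adjusted p = 3.20e-07 by edgeR).

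**Figure D2:**
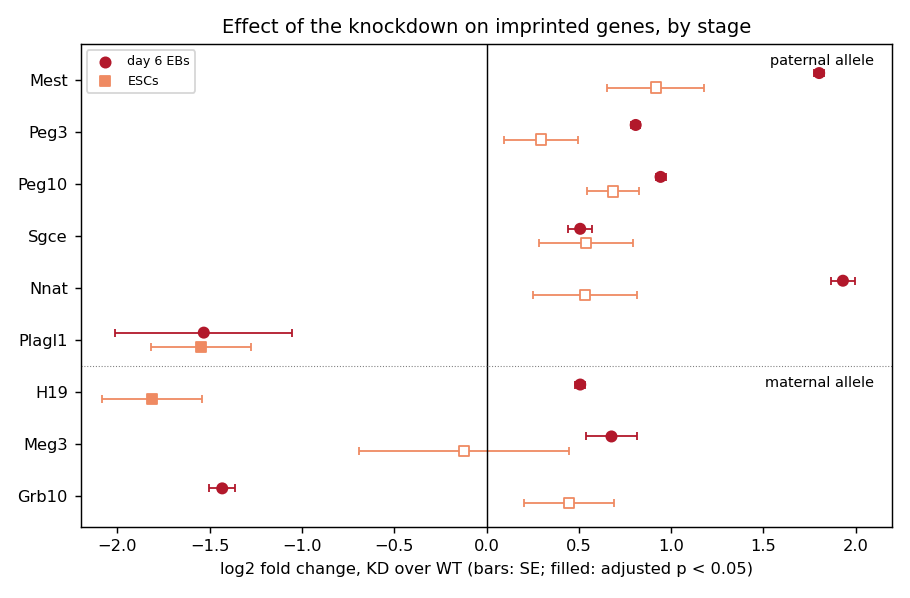
Log2 fold change of KD over WT for 9 imprinted genes in day 6 EBs (circles) and ESCs (squares), with SE bars, and filled where the adjusted p is under 0.05. H19 lies at 0.51 in EBs and at −1.81 in ESCs, Grb10 at −1.43 and 0.45, and Plagl1 near −1.5 in both.

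In ESCs as a whole, 2 of the 9 tested members passed, H19 and Plagl1, both lower. Of all 16081 tested genes 0.603% passed, 0.168% higher and 0.435% lower. KD and WT libraries did not overlap for 5 of the 9 members (H19, Mest, Peg10, Sgce and Plagl1), against 30.8% of all tested genes. Without ESC WT replicate 2, 4 members passed, Mest and Peg10 higher and H19 and Plagl1 lower, without replicate 3 the last 3 of these passed, and without any 1 of ESC WT replicate 1 or the ESC KD replicates none did. Markers of extraembryonic endoderm, a cell type in which H19 and Igf2 are high in the embryo, summed to 13.1 to 13.9 CPM in KD ESCs and 24.4 to 28.5 CPM in WT ESCs. Most of that sum was Amn, at 11.4 to 12.6 CPM in KD ESCs and 21.4 to 26.5 CPM in WT ESCs, a gene that was also lower in EBs than in ESCs (−2.62 in KD and −3.05 in WT cells on the log2 scale). The other 9 genes summed to 1.29 to 1.85 CPM in KD ESCs and 2.04 to 3.04 CPM in WT ESCs. Of the list 1 of 3 tested genes, Amn, was lower (−1.04, SE 0.13, adjusted p = 0.00791 by edgeR) and 0 were higher. The defining gene Afp had 0 counts in each KD ESC library and in 2 of 3 WT ESC libraries, with 12 counts in WT replicate 1. The part of these markers in the fall of H19 was not tested.

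In EBs both directions occurred among paternally and among maternally expressed members. There 5 of 6 tested paternally expressed members were higher and 1 was lower, with a median log2 fold change of 0.88, and 2 of 3 maternally expressed members were higher and 1 lower, with a median of 0.51. In ESCs 1 of 6 paternally expressed members was lower and 0 higher (median 0.54), and 1 of 3 maternally expressed members was lower and 0 higher (median −0.12). Over all tested genes 55.7% were called in EBs, 28.0% higher and 27.7% lower, and 0.603% in ESCs, 0.168% higher and 0.435% lower. The medians over all tested genes were 0.00 in EBs and 0.01 in ESCs. With so few genes in a class these are descriptions, and no test was made between the classes.

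A wider list held 45 other imprinted genes, classed by the copy assigned to each gene. Whether only that copy was expressed in these cells was not measured. Over all tested genes 28.0% were higher and 27.7% lower in KD EBs. Of the list's 20 tested paternally expressed genes 11 were higher and 3 lower (median 0.21), and of the 19 tested maternally expressed genes 12 were higher and 2 lower (median 0.51). In ESCs 0 of the 28 tested genes of this list passed in edgeR, with 4 at an unadjusted p under 0.05. DESeq2 called 1, and edgeR called 2 of 30 without ESC WT replicate 2. Among genes of the members' own domains, 11 of 18 tested were higher in KD EBs and 2 were lower, Copg2 and Usp29, against a share of 55.7% called over all tested genes. Those with an absolute log2 fold change of at least 1 were Asb4 (1.69, SE 0.06), Pon2 (1.17, SE 0.10), Dio3 (1.21, SE 0.16), Ddc and Cobl, all higher. Asb4, a maternally expressed gene near Peg10, had 109 ± 8.28 CPM with the KD and 33.7 ± 2.05 CPM in WT EBs. Dio3, the gene of the deiodinase that inactivates thyroid hormone at the far end of the Dlk1 domain, had 9.34 ± 0.969 CPM with the KD and 4.04 ± 0.407 CPM in WT EBs.

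Imprinted genes elsewhere in the genome included both kinds among the largest rises. Ndn, Magel2 and Peg12, paternally expressed neighbours of the Prader-Willi region, had log2 fold changes of 1.45 (SE 0.04), 1.65 (SE 0.08) and 1.75 (SE 0.12). Igf2r, the maternally expressed receptor gene that clears IGF2, and Airn, the paternally expressed noncoding RNA that overlaps it, rose together (1.01, SE 0.03, and 1.06, SE 0.08), and the counts do not separate their strands. The organic cation transporter gene Slc22a3 (1.44, SE 0.32) and the proteoglycan gene Dcn (4.06, SE 0.23) rose as well, and Gatm fell (−2.30, SE 0.56), with a wide spread in WT EBs (0.418 ± 0.0526 CPM with the KD and 2.08 ± 1.61 CPM in WT EBs). The edgeR adjusted p of these 8 genes ran from 5.04e-24 for Igf2r to 0.00214 for Gatm. Of 22 tested genes of this group, 12 were higher and 3 lower, against the same 55.7% called over all tested genes.

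**Figure D3:**
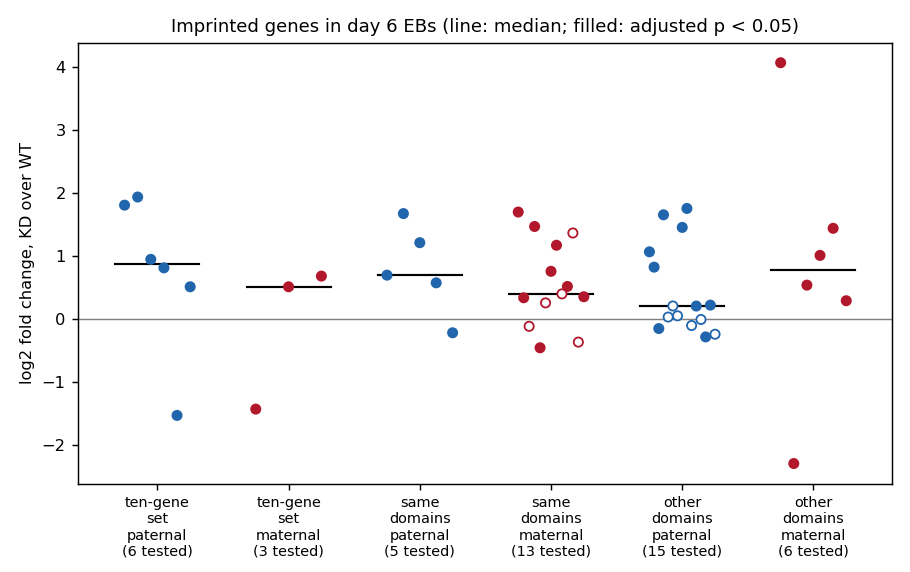
Log2 fold change of KD over WT in day 6 EBs for imprinted genes, grouped by the copy assigned to each gene. Columns hold the 10-gene set, other genes of the same domains and genes of other domains. A line marks each median, and points are filled at an adjusted p under 0.05. Each of the 6 columns holds genes above and below 0, and the medians lie between 0.20 and 0.88.

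Markers of cell types were compared in EBs too, where 55.7% of all tested genes were called, 28.0% higher and 27.7% lower. Of the 8 mesenchyme markers 7 were higher and 0 lower. They summed to 2071 to 2122 CPM with the KD and 655 to 666 CPM in WT EBs. In the extraembryonic endoderm list 4 of 10 genes were higher and 4 lower, with sums of 941 to 972 CPM with the KD and 630 to 643 CPM in WT EBs. Trophoblast markers summed to 606 to 627 CPM with the KD and 965 to 982 CPM in WT EBs. Most of each sum was 1 gene, Hand1 (584 ± 14.2 CPM with the KD and 920 ± 9.38 CPM in WT EBs). Of 4 tested genes 0 were higher and 3 lower, and the defining genes Prl3d1 and Tpbpa were at 0 counts in EBs of both kinds. Cardiac muscle markers summed to 25.2 to 28.0 CPM with the KD and 59.0 to 66.8 CPM in WT EBs, with 0 of 5 higher and 3 lower. Of the 4 skeletal muscle markers 1 was tested, Des, and it was lower in KD EBs (18.3 ± 0.375 against 69.1 ± 1.525 CPM in WT EBs). Des made up nearly all of the sums of 18.1 to 18.8 CPM with the KD and 67.7 to 70.8 CPM in WT EBs. Myf5 was at 0 counts in both. Pluripotency markers summed to 372 to 419 CPM with the KD and 185 to 194 CPM in WT EBs, with 5 of 6 higher and 0 lower. The part of these cell types in the members' changes was not tested.

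The factors that maintain imprints were also compared. Zfp57 rose to 108 ± 1.202 CPM in KD EBs, against 63.5 ± 2.38 CPM in WT EBs (0.77 on the log2 scale, SE 0.05, adjusted p = 3.73e-15 by edgeR). Trim28 (0.47, SE 0.03), the histone methyltransferase gene Setdb1 (0.24, SE 0.04), the insulator protein gene Ctcf (0.21, SE 0.04) and Dppa3 (2.99, SE 0.26), which guards methylation in the early embryo, rose too, with edgeR adjusted p between 4.99e-11 and 3.18e-05 for the last 3 and 9.88e-16 for Trim28. The maintenance methyltransferase gene Dnmt1 fell slightly (−0.12, SE 0.03, adjusted p = 0.00189 by edgeR). Zfp445 (−0.01, SE 0.04) and Uhrf1 (−0.05, SE 0.03) did not pass. In ESCs 0 of the 8 passed in edgeR (2 at an unadjusted p under 0.05) or in DESeq2, and 1 passed in edgeR without ESC WT replicate 2. There Zfp57 stood at 613 ± 19.2 CPM with the KD and 616 ± 38.8 CPM in WT cells (−0.01, SE 0.08, adjusted p = 0.973 by edgeR).

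The step from ESCs to EBs raised most members. In KD cells 8 of 9 tested members were higher in EBs than in ESCs and 1 was lower, and the same counts held in WT cells, against 79.8% of 18975 tested genes that passed in each of these comparisons, 42.5% higher and 37.3% lower. EB and ESC libraries did not overlap for 83.6% of all tested genes in KD and 81.7% in WT cells. Plagl1 was the member that fell, with a log2 fold change of −2.57 (SE 0.39) in KD and −2.65 (SE 0.35) in WT cells. On the log2 scale H19 rose by 9.62 (SE 0.15) in KD and by 7.23 (SE 0.13) in WT cells, Mest by 8.11 (SE 0.17) in KD and 7.14 (SE 0.17) in WT cells, Peg3 by 8.07 (SE 0.12) in KD and 7.50 (SE 0.11) in WT cells, and Peg10 by 7.31 (SE 0.09) in KD and 6.99 (SE 0.09) in WT cells. The other rises, of Sgce, Meg3, Nnat and Grb10, ran from 1.65 to 3.99 in KD and from 2.52 to 3.45 in WT cells. Adjusted p of these 18 edgeR tests were at most 1.91e-05. The median log2 fold change of the 9 was 3.99 in KD and 3.45 in WT cells, against 0.15 and 0.17 over all tested genes. Together the 10 members took 1.10% to 1.14% of all counts in KD EBs and 0.551% to 0.566% in WT EBs, and 0.00503% to 0.00543% in KD ESCs and 0.00314% to 0.00469% in WT ESCs.

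**Figure D4:**
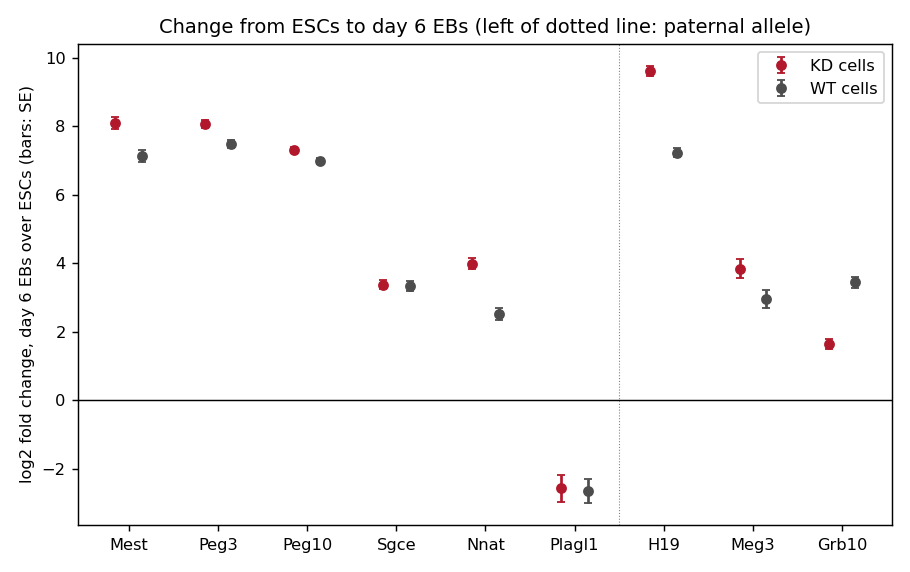
Log2 fold change of day 6 EBs over ESCs in KD and WT cells for 9 imprinted genes, with SE bars, from a fit of all 12 libraries. The points of H19 lie at 9.62 in KD and 7.23 in WT cells, those of Grb10 at 1.65 and 3.45, and Plagl1 lies below 0 in both.

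Compared per kilobase of exon, H19 was the most abundant member in EBs of both kinds, at 740 ± 32.6 CPM per kilobase in KD and 521 ± 3.22 CPM per kilobase in WT EBs. Mest followed it in KD EBs (711 ± 27.7) ahead of Peg10 (545 ± 22.4), while in WT EBs Peg10 (283 ± 6.94) stood ahead of Mest (204 ± 3.702). H19 and Mest in KD EBs differed by less than the SD of H19. Peg3 was the fourth in both (207 ± 3.47 and 118 ± 1.94 CPM per kilobase). In KD ESCs Peg10 led at 2.56 ± 0.235 CPM per kilobase, with Nnat (2.08 ± 0.410) and Mest (1.92 ± 0.146) next and not separated by their SDs. In WT ESCs H19 led at 2.47 ± 0.638 CPM per kilobase, with Peg10 at 1.59 ± 0.162.

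The KD effect itself differed between stages for 6 of the 9 tested members, 5 upward and 1 downward, against 23.0% of 18975 tested genes (12.8% higher and 10.2% lower), by the interaction term in the fit of all 12 libraries. The value is the KD log2 fold change in EBs minus that in ESCs, both from this joint fit. It can therefore differ from the gap between the values given above, which come from each stage fitted alone. It was 2.40 for H19 (SE 0.19, adjusted p = 5.86e-07 by edgeR), 1.47 for Nnat (SE 0.23, adjusted p = 2.70e-04 by edgeR), 0.97 for Mest (SE 0.21, adjusted p = 0.00562 by edgeR), 0.57 for Peg3 (SE 0.14, adjusted p = 0.00696 by edgeR), 0.32 for Peg10 (SE 0.10, adjusted p = 0.0360 by edgeR) and −1.80 for Grb10 (SE 0.22, adjusted p = 3.12e-05 by edgeR). Genes not called were Sgce (0.03, SE 0.19), Plagl1 (0.09, SE 0.58) and Meg3 (0.89, SE 0.39), with edgeR adjusted p of 0.943, 0.963 and 0.116. For Plagl1 the SE leaves room for a sizeable difference in either direction. The Peg10 difference was called in 3 of the 12 fits with 1 library left out, and neither it nor that of Peg3 passed with scaling by library size only (0.16, edgeR adjusted p = 0.411, and 0.42, adjusted p = 0.0870 by edgeR), under which the median of all genes shifted by −0.16.

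Genes with the most similar pattern over the 12 libraries were ranked by the root mean square difference of log2 CPM, each gene centred on its own mean, among 11188 genes of mean log2 CPM of at least 2. For Mest these were Adcy8 (0.44), Peg10 (0.47) and Peg3 (0.48), so 2 of its 3 nearest genes were other members. Peg10 was nearest to Heph (0.27), Arhgap6 (0.36) and Peg3 (0.38), and Peg3 to Hapln1 (0.33), Greb1 (0.34) and Gata6 (0.35). H19 was nearest to Bmp5 (0.54), Zeb2 (0.55) and Ccdc80 (0.60). Nnat was nearest to Efnb3 (0.23), Tgfbr1 (0.28) and Tgfb1i1 (0.29), and Grb10 to Amotl2 (0.25), Slc6a6 (0.27) and Jph4 (0.29). Sgce was nearest to Myo6 (0.16), Senp5 (0.17) and Edem3 (0.18), Meg3 to Rai1 (0.17), Rassf8 (0.21) and Ncoa2 (0.22), and Plagl1 to Platr14 (0.49), Acap1 (0.52) and Fhad1 (0.53). The median difference to all genes lay between 1.39 for Grb10 and 4.17 for H19, and each pattern includes the step between stages that the 12 libraries share.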

How the data were processed

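Poly-T selected RNA was sequenced from 12 libraries in 4 groups of 3. The deposited tables, 1 for ESCs and 1 for EBs, give raw gene counts. HISAT2 2.1.0, featureCounts 2.0.3, DESeq2 1.18.1 and mm10 come from the submitters' processing notes, which give no order. Per the file headers, Ensembl release 90 gene models of GRCm38 were counted with both mates mapped. The headers name no strand option, so antisense partners are not separated. They name no option to count pairs, and 61.7% to 68.7% of counts from 1 to 10 were even, so each mate was counted and fragments are overstated by up to about a factor of 2. Symbols were matched for 52403 identifiers.

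KD was tested against WT within each stage, and EBs against ESCs and the interaction in a fit of all 12 libraries, with edgeR 4.0.16 (R 4.3.3), TMM, filterByExpr (minimum count 10, minimum total 15), robust quasi-likelihood and no covariate. CPM use TMM library sizes of the stage alone, and SD and n = 3 follow. Fitted log2 values of EBs against ESCs come from the joint normalization. The SE is the absolute log2 fold change over the square root of F. P-values measure the spread between libraries. No pair of replicates held identical counts. Alternatives were DESeq2 1.42.0, library size only, no filter, each library left out, a replicate block and a fit of all 12 libraries. The fits were also run on simulated counts with few changed genes and no outlying library, unlike these data, and no call rests on that run. All 10 members are named. Neighbours and other imprinted genes are named where called with an absolute log2 fold change of at least 1 in KD against WT, and the maintenance factors in full. Usp29, Blcap, Mirg, Rian, Igf2, Copg2 and Rtl1 were named after their values were seen. The 3 nearest genes by pattern are named per member. Members and lists were chosen with earlier results of these data known.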

Additional observations from a re-analysis of the deposited data

Results flagged for a closer look

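The KD effect differed between stages for 6 members by the interaction term of edgeR. The value given is the KD log2 fold change in EBs minus that in ESCs, both from the joint fit. H19 (2.40) and Grb10 (−1.80) had KD effects of opposite sign in the 2 stages, and all 3 KD libraries of H19 were above the WT libraries in EBs and below them in ESCs. For Grb10 the ESC libraries overlapped and the ESC value of 0.45 did not pass (adjusted p = 0.306 by edgeR), so its sign in ESCs is not established. Nnat (1.47), Mest (0.97), Peg3 (0.57) and Peg10 (0.32) were called higher in EBs and in ESCs had positive values that did not pass the test in that stage alone (0.53, 0.92, 0.30 and 0.69). The ESC libraries of Nnat and Peg3 overlapped too. The share of genes called in this comparison was 23.0%. The Peg10 difference was called in 3 of the 12 fits with 1 library left out. With scaling by library size only, neither Peg10 nor Peg3 passed (edgeR adjusted p = 0.411 and 0.0870). ESC levels of all 6 were below 20 CPM, and H19 had 145 counts in KD ESCs and 559 in WT ESCs, so the ESC side limits the precision of each difference.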

How the results depend on the processing

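In EBs all 9 tested members were called under every alternative tried, except Plagl1 without EB WT replicate 2 (8 to 9 members and 8923 to 9230 genes with 1 library left out, against 9 and 9667). The comparisons of EBs with ESCs called 9 members in every setting, though scaling by library size only moved the median of all genes by 0.37 in KD and 0.53 in WT cells and the share of higher calls to 61.9% in KD and 65.2% in WT cells, against 53.2% and 53.3%. For the difference between stages it moved that share to 35.3%, against 55.6%, with 4 members called, against 6. ESC results depended on the setting. Against 2 members and 97 genes called, the counts were 0 and 36 with library size only (median shift 0.11), 4 and 1769 without a filter, 4 and 1030 with DESeq2, 5 and 1999 in the fit of all 12 libraries, and 0 to 4 and 8 to 1557 with 1 library left out. The share of higher genes was 27.8%, against 39.0% without a filter and 48.5% in the joint fit. The replicate numbers do not pair the libraries, whose deviations correlated by −0.026 to 0.037. With a replicate block 3 members and 266 genes were called in ESCs, and 9 and 9655 in EBs, and in the ESC block fit Peg10 also passed.

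H19 and Plagl1 in ESCs kept their sign in all 11 alternatives and were called in 6 each. Signs reversed only for values near 0. These were Meg3 in ESCs (−0.39 to 0.090 with 1 library left out), and in the difference between stages Sgce (−0.13 with library size only, −0.12 to 0.15 with 1 library left out) and Plagl1 (−0.071, and −0.29 to 0.41). The causes were not tested. Group means under 2 CPM, which rest on few counts, were those of H19 in KD ESCs (145 counts), Plagl1 in KD EBs, WT EBs and KD ESCs (40, 119 and 166 counts), Meg3 in KD and WT ESCs (50 and 61 counts) and Dlk1 in each group.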
